A study of Homo sapiens with 12 samples.

Results

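The genes described here are the vascular endothelial growth factor (VEGF) ligands VEGFA, VEGFB, VEGFC and PGF, and the VEGF receptors KDR, FLT1 and FLT4. They were taken from the deposited expression table by platform gene symbol. Each of the 7 was held by 1 transcript cluster (the array's set of probes for a gene), out of 13530 genes with a symbol of their own. Of the 7, 5 passed the filter on dim signals and could be tested, the ligands VEGFA, VEGFB and VEGFC and the receptors KDR and FLT1. PGF and FLT4 were above the filter on 0 of the 12 arrays, so their values are given as levels only.

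VEGF ligands are secreted dimers that bind receptor tyrosine kinases, mainly on endothelium, and drive vessel growth and permeability. VEGFA binds KDR (VEGFR2), which carries most of the growth signal, and FLT1 (VEGFR1), which binds VEGFA tightly but signals weakly and can act as a decoy. VEGFB and PGF (placental growth factor) bind FLT1 alone among the receptors, and VEGFC binds FLT4 (VEGFR3) on lymphatic endothelium and, once processed, KDR. In glioblastoma VEGFA is the best known tumour-derived vessel growth factor and is induced by hypoxia through HIF factors, which pair with ARNT, the same partner that the aryl hydrocarbon receptor (AHR) uses.

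The cells were U-87MG, an established human glioblastoma line, cultured alone without vessel cells. All 12 samples carried the control shRNA (shCtrl) delivered by lentivirus, so every group was the same stable line and none carried an shRNA against AHR. The 3 groups of 4 samples received for 24 h the solvent DMSO (at most 0.2% in medium), 100 nM FICZ (6-formylindolo[3,2-b]carbazole, a high-affinity AHR ligand) or 50 µM kynurenic acid (KynA, a tryptophan metabolite and AHR ligand). The labels number the 4 samples of a group as biological replicates but name no culture or day for them, so the p-values reflect sample-to-sample spread that could be technical, and they do not say whether the stable line is 1 clone.

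Values are log2 signals, 1 array per sample, and a difference of 1 is a 2-fold change. Arrays correlated with each other at 0.938 to 0.97 over all transcript clusters. FICZ 4 stood apart with the lowest array weight, 0.551. Test results that turn on it are given without it, whereas the summed marker signals include it. Of 6 listed AHR targets 5 were tested. TIPARP, a feedback inhibitor of AHR, was higher with FICZ by 1.21 ± 0.135 (SE; limma adjusted p = 0.000659) and the cytochrome P450 gene CYP1B1 by 1.07 ± 0.165 (adjusted p = 0.00629). AHRR, the AHR repressor gene, rose by 0.97 ± 0.147 (adjusted p = 0.00565), so that 3 of the 5 passed with FICZ. NQO1 (0.09 ± 0.13; 0.783) and ALDH3A1 (-0.11 ± 0.142; 0.753) did not pass. With KynA 0 of the 5 passed by limma, with TIPARP at 0.61 (adjusted p = 0.469) and CYP1B1 at 0.71 (0.494). At an unadjusted p under 0.05 there were 3 of the 5 with KynA, against 3.39% of tested genes. The glioma and mesenchymal markers VIM (13.1 in DMSO), FN1 (12.85), CHI3L1 (10.8) and CD44 (10.3) were bright. The other matched glial markers were dimmer in DMSO: SLC1A3 (8.6), NES (8.19), GFAP (8.03 ± 0.282, SD, n = 4), FABP7 (7.70) and AQP4 (7.55). S100B, SOX2 and OLIG2 were not matched to a row of their own. Of 8 tested glial markers 0 passed with FICZ, with AQP4 at 0.53 ± 0.176 (adjusted p = 0.186) and CD44 at -0.15 ± 0.0859 (0.452). The summed linear signal of 9 glial markers was 20270 to 21250 in DMSO and 17460 to 21050 in FICZ. Of the FICZ arrays, FICZ 4 had the lowest values of the 2 brightest, VIM (12.87) and FN1 (12.52). At an unadjusted p under 0.05 there was 1 glial marker of these 8. With FICZ 14.5% of all tested genes were under that value, the share against which the unadjusted FICZ counts of each list are to be read. Counts of list genes that passed with FICZ are to be read against 0.851% of all tested genes (0.601% upward, 0.25% downward).

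Promoter windows were at hand for 5 of the 7 members, VEGFB, VEGFC, PGF, KDR and FLT1, in RefSeq's GRCh38.p14 annotation (250 bases before to 50 after a start site). Shown are those of KDR, the receptor that rose with FICZ, and of FLT1 and VEGFC, a receptor and a ligand that did not pass, so that promoters of members on either side of the threshold can be read together. Capitals mark GCGTG on either strand (CACGC when it lies on the other strand), the core of the site bound by AHR with ARNT. The windows, all on the minus strand and written 5′ to 3′ along the gene, are chr4:55125546-55125845, chr13:28495079-28495378 and chr4:176792873-176793172.
KDR: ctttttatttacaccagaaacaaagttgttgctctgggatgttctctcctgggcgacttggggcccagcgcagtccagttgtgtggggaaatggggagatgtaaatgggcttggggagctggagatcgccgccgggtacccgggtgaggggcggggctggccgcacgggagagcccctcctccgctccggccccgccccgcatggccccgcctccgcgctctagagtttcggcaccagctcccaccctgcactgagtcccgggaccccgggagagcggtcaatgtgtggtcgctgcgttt
FLT1: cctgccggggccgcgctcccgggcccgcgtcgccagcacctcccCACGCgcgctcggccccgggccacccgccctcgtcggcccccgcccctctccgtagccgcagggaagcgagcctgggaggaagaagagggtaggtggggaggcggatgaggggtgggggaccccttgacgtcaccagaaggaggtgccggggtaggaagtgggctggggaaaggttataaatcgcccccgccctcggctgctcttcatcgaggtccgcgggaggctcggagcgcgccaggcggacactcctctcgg
VEGFC: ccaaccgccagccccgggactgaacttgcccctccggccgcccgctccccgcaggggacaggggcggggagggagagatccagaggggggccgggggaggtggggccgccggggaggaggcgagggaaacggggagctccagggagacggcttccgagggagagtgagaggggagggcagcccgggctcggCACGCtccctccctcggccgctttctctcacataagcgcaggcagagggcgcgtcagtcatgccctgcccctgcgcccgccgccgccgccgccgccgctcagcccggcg
The KDR window held 0 matches to GCGTG, and those of FLT1 and VEGFC held 1 each. VEGFB had 1 match and each of the 2 windows of PGF had 1. Among 35114 RefSeq windows of the same length 36.5% held GCGTG. One form of the core of the HIF site, ACGTG, which shares its last 4 letters with GCGTG, was also searched for. This form was found 0 times in these 6 windows on either strand and in 21.4% of all windows. No other form was counted for HIF, so the 0 does not show that the windows lack a HIF core. Nor do the matches to GCGTG tell AHR from HIF. These are letter matches in a short window and show no binding.

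With FICZ, VEGFA and its receptor KDR were the members that rose, each by about 1.4-fold, while the FICZ arrays of VEGFB, VEGFC and FLT1 overlapped with their DMSO arrays. VEGFA read 10.35, 10.39, 10.37 and 10.23 in DMSO 1 to 4, 10.87, 11.01, 10.82 and 10.71 in FICZ 1 to 4, and 10.65, 10.59, 10.53 and 10.53 in KynA 1 to 4. All FICZ arrays lay above all KynA arrays, and all KynA arrays above all DMSO arrays, so the 3 groups did not overlap. The rise with FICZ was 0.52 ± 0.0801 (SE, n = 4; 95% interval 0.35 to 0.693; 1.44-fold; limma adjusted p = 0.00626). VEGFA kept its call with each of the 12 arrays left out in turn (adjusted p 0.00547 to 0.0268), and without FICZ 4 the difference was 0.57. In a bulk sample a larger share of expressing cells and more RNA per cell cannot be told apart.

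**Figure D1:**
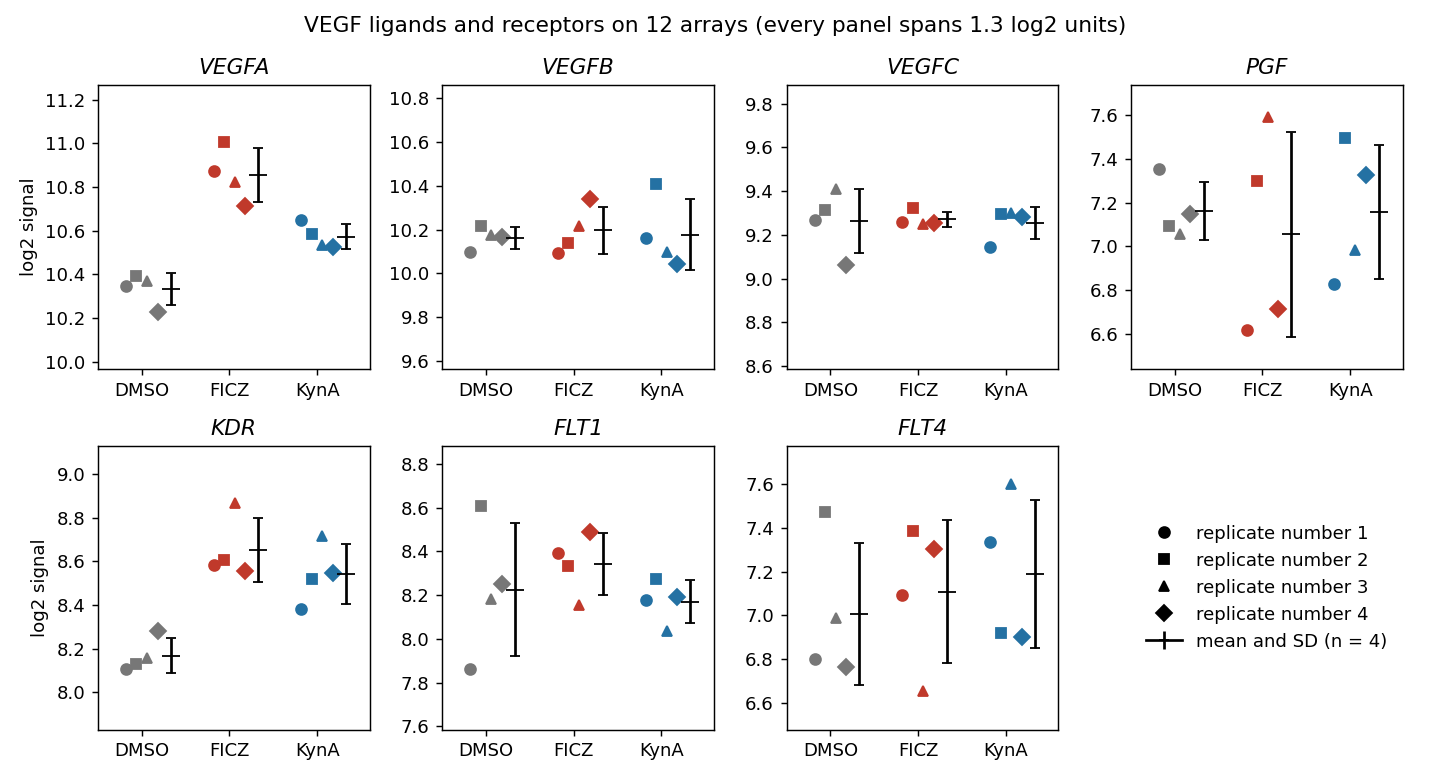
Log2 signal of the 7 VEGF ligands and receptors in each array, by group, with the mean and SD (n = 4) beside the points; symbols give the replicate number and each panel spans the same range of log2 units on its own scale. VEGFA separates into DMSO, KynA and FICZ from low to high, KDR lies higher in both ligand groups than in DMSO, and the groups overlap for the other 5 genes.

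KDR read 8.11, 8.13, 8.16 and 8.28 in DMSO 1 to 4, 8.58, 8.61, 8.87 and 8.55 in FICZ 1 to 4, and 8.38, 8.52, 8.72 and 8.55 in KynA 1 to 4. Both ligand groups lay wholly above DMSO, and the ligand groups overlapped with each other. The rise with FICZ was 0.48 ± 0.0939 (95% interval 0.283 to 0.685; 1.40-fold; limma adjusted p = 0.0293). This call was less firm than that of VEGFA. The adjusted p rose to 0.0792 with DMSO 1 left out, to 0.0692 with DMSO 2, to 0.0868 with DMSO 3, to 0.0671 with FICZ 2, to 0.0525 with FICZ 3, the brightest KDR array, and to 0.0531 in a fit of the 8 DMSO and FICZ arrays alone. The difference stayed between 0.41 and 0.52 in all of these fits, and without FICZ 4 the call held (0.0485).

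**Figure D2:**
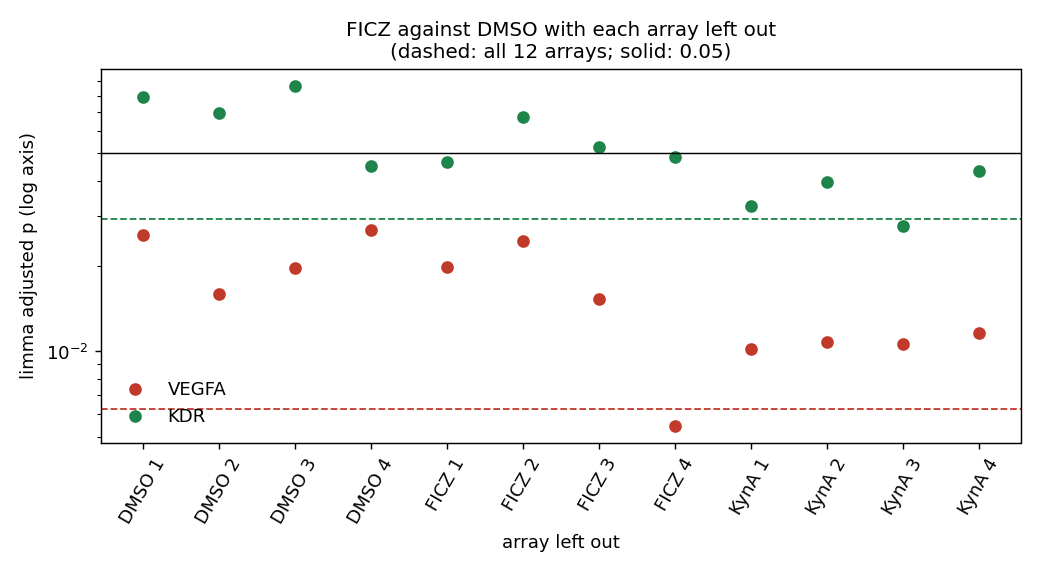
Limma adjusted p (log axis) for FICZ against DMSO of VEGFA (red) and KDR (green) with each array left out in turn; dashed lines give the value with all arrays and the solid line is at 0.05. All VEGFA points lie under the solid line (0.00547 to 0.0268), and 5 KDR points lie above it (up to 0.0868).

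Thus 2 of the 5 tested members passed with FICZ, both upward, against 0.851% of the 10807 genes tested (0.601% upward). The same 2 members had FICZ arrays wholly above the DMSO arrays, which held for 2.94% of tested genes (4.91% lay wholly below, 7.86% either way). The full order of DMSO, KynA and FICZ without overlap, shown by VEGFA, was found in 18 genes, or 0.167% of those tested. Of the genes named here, FGF2, TIPARP, SECTM1, ALDH1A3 and SFRP2 showed it too.

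Among the other ligands, VEGFB, which is linked to fatty acid uptake and cell survival more than to vessel growth, read 10.10, 10.22, 10.17 and 10.16 in DMSO and 10.09, 10.14, 10.21 and 10.34 in FICZ. The FICZ arrays enclosed the DMSO range, and the difference was 0.03 ± 0.0905 (95% interval -0.16 to 0.228; limma adjusted p = 0.897). In KynA, VEGFB lay between 10.04 and 10.41, with KynA 2 highest. VEGFC, the lymphatic growth factor, read 9.27, 9.31, 9.41 and 9.06 in DMSO and 9.26, 9.32, 9.25 and 9.26 in FICZ. Its FICZ arrays fell inside the DMSO range, with a difference of 0.01 ± 0.0831 (-0.17 to 0.186; adjusted p = 0.977). In KynA, VEGFC lay between 9.14 and 9.30. The upper bounds for VEGFB and VEGFC with FICZ lie below the lower bound for VEGFA.

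PGF, the FLT1 ligand first found in placenta, was dim and scattered. It read 7.35, 7.09, 7.06 and 7.15 in DMSO, 6.61, 7.30, 7.59 and 6.71 in FICZ, and 6.83, 7.50, 6.98 and 7.33 in KynA. All of these lie below the filter values of 7.69 to 7.74, and the SD in FICZ, 0.468, was larger than the difference of the means, -0.11. In a fit without the filter the 95% interval of that difference was -0.546 to 0.331.

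Of the remaining receptors, FLT1 read 7.86, 8.61, 8.18 and 8.25 in DMSO, 8.39, 8.33, 8.15 and 8.49 in FICZ, and 8.18, 8.27, 8.04 and 8.19 in KynA. DMSO 1 and DMSO 2 enclosed all other arrays, and the difference with FICZ was 0.12 ± 0.13 (95% interval -0.163 to 0.395; limma adjusted p = 0.72). That interval overlaps those of VEGFA and KDR, so an unequal response of the receptors is not shown by it. FLT4, the VEGFC receptor, was below the filter on all arrays, at 6.76 to 7.47 in DMSO, 6.65 to 7.39 in FICZ and 6.90 to 7.60 in KynA. Its groups overlapped throughout, and without the filter the interval for FICZ against DMSO was -0.337 to 0.539.

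For VEGFA and KDR the mean differences from the same DMSO arrays were smaller with KynA than with FICZ. Of the 5 tested members 0 passed with KynA, against 0.00925% of tested genes (1 gene). At an unadjusted p under 0.05 there were 2, VEGFA and KDR, against 3.39% of tested genes. VEGFA differed from DMSO by 0.24 ± 0.0801 (95% interval 0.0683 to 0.412; limma adjusted p = 1.0) and KDR by 0.37 ± 0.0939 (0.171 to 0.574; adjusted p = 0.719). Both had all 4 KynA arrays above all 4 DMSO arrays, as had 1.13% of tested genes (1.28% lay wholly below, 2.41% either way). VEGFB (0.02 ± 0.0905), VEGFC (-0.01 ± 0.0831) and FLT1 (-0.06 ± 0.13) had intervals across 0.

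**Figure D3:**
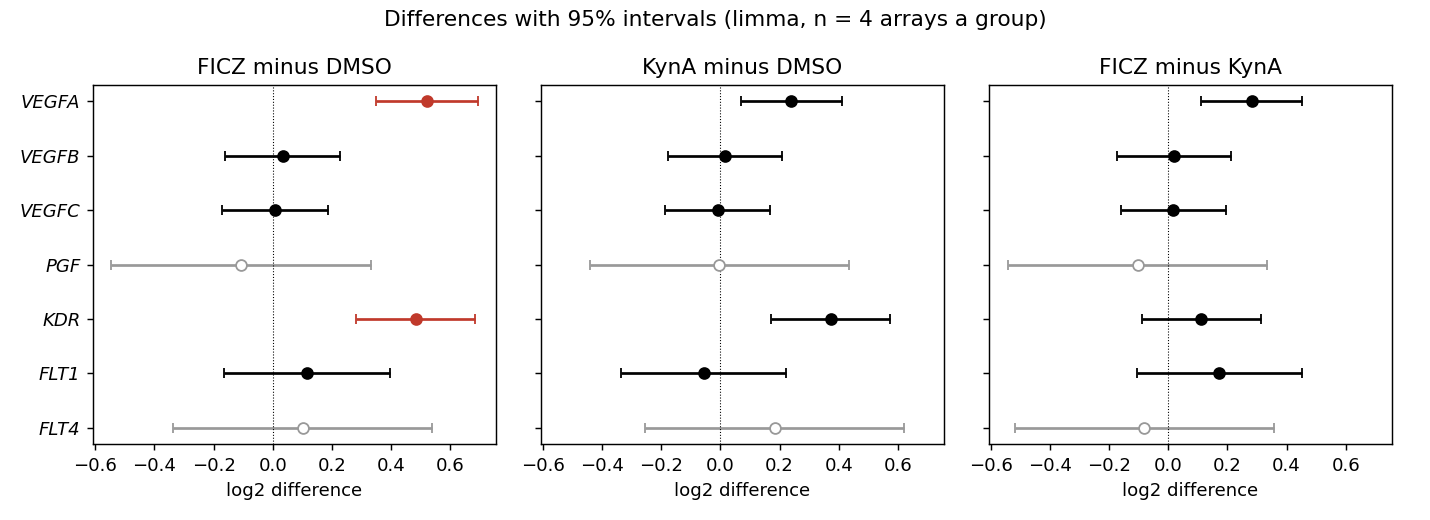
Log2 differences between groups with 95% intervals from limma (n = 4 arrays a group) for each member, in 3 panels by comparison; red marks an adjusted p under 0.05, open grey circles mark PGF and FLT4, which did not pass the filter and are drawn from the fit without it. VEGFA (0.52) and KDR (0.48) are red with FICZ against DMSO, and no member is red in the other comparisons.

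The ligands were then compared with each other, at their unequal doses of 100 nM FICZ and 50 µM KynA. VEGFA was brighter with FICZ than with KynA by 0.28 ± 0.0801 (95% interval 0.11 to 0.453), with no overlap of the groups, and did not pass over all genes (limma adjusted p = 0.38). Such an upward separation was found in 1.4% of tested genes (2.79% downward, 4.18% either way). By limma 0 of the 5 members passed (0.00925% of tested genes), and 1, VEGFA, had an unadjusted p under 0.05, as had 8.34% of tested genes. KDR differed by 0.11 ± 0.0939 (-0.0898 to 0.313; adjusted p = 0.782) and FLT1 by 0.17 ± 0.13 (-0.107 to 0.451; 0.753). For KDR the order was therefore DMSO below both ligands, with FICZ and KynA not separated beyond their spread.

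Arrays with the same replicate number were also set side by side. FICZ minus DMSO for VEGFA was 0.53, 0.62, 0.45 and 0.49 for numbers 1 to 4, and KynA minus DMSO was 0.30, 0.19, 0.17 and 0.30. KDR gave 0.47, 0.48, 0.71 and 0.27 with FICZ and 0.27, 0.39, 0.56 and 0.27 with KynA. Number 3 had the lowest VEGFA difference and the highest KDR difference with both ligands, which share the DMSO 3 array. For FLT1 the FICZ differences were 0.53, -0.28, -0.03 and 0.24, positive for 2 numbers and negative for 2. VEGFB and VEGFC lay between -0.16 and 0.19 with FICZ at every number.

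**Figure D4:**
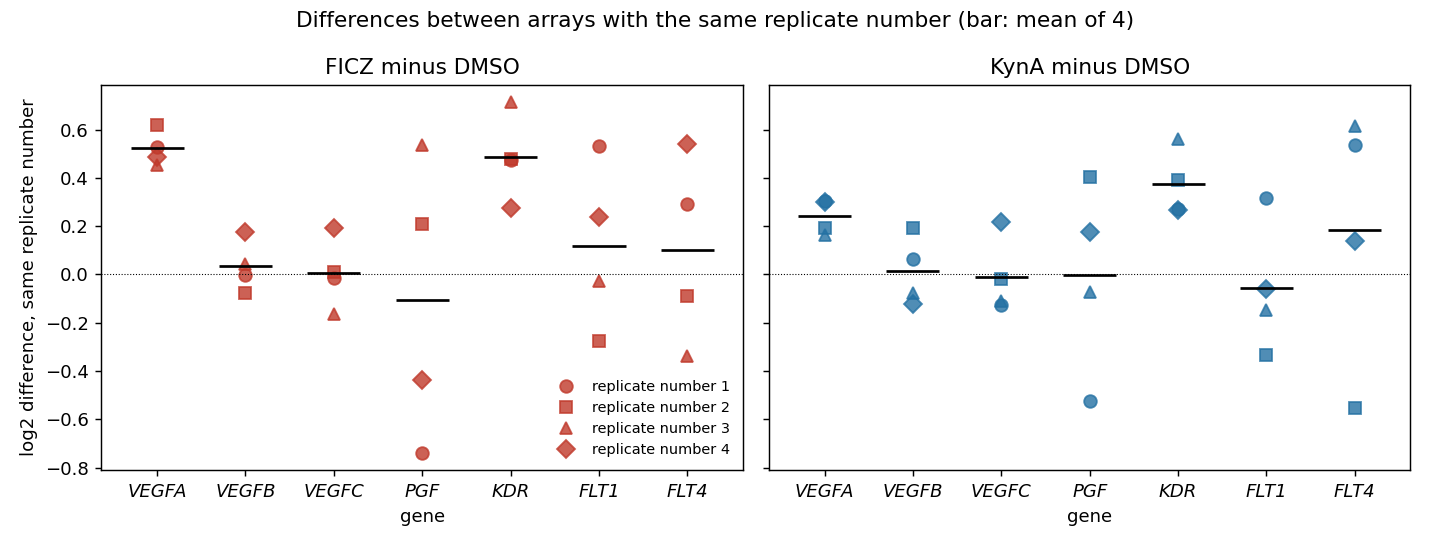
Log2 difference between arrays that share a replicate number, FICZ minus DMSO on the left and KynA minus DMSO on the right, for each member; symbols give the number and bars the mean of 4. VEGFA and KDR are above 0 at every number with both ligands, and the other members lie on both sides of 0.

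Whether VEGFA changed more than each other member was tested within arrays, on the log2 value of VEGFA minus that of the partner, with exact permutation of the 4 and 4 arrays, two-sided (smallest possible p 0.0286). There were 18 such comparisons, 6 partners in 3 contrasts, and 0 passed after Benjamini-Hochberg adjustment over them (smallest adjusted p = 0.171), while 3 had the smallest unadjusted p. An adjusted p under 0.05 would have needed most of the 18 comparisons at the smallest possible p. The 0 therefore does not show that VEGFA and its partners changed alike. With FICZ, VEGFA changed by 0.49 ± 0.116 more than VEGFB and by 0.51 ± 0.0639 more than VEGFC (SE; exact permutation p = 0.0286 and adjusted p = 0.171 each), at 4 of 4 replicate numbers. Against VEGFB the p was 0.0571 without any 1 of the 4 DMSO arrays, although the groups still did not overlap. Against its receptors the excess was 0.41 ± 0.184 for FLT1 (exact p = 0.0857) and 0.04 ± 0.122 for KDR (exact p = 0.743). For the dim genes it was 0.63 ± 0.235 for PGF and 0.42 ± 0.213 for FLT4 (exact p = 0.0857 each). With KynA the change of VEGFA exceeded that of VEGFC by 0.25 ± 0.0758 (exact p = 0.0286, and 0.0571 without KynA 1, still without overlap). The VEGFA change exceeded that of VEGFB by 0.23 ± 0.0838 (exact p = 0.0857, and 0.0286 without KynA 2). It was below that of KDR by a difference of -0.13 ± 0.12 (exact p = 0.371).

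VEGFA and KDR had a Pearson correlation of 0.726 over the 12 arrays, which share the groups, and of -0.374 after each group's mean was subtracted. The link between them across arrays therefore lay in the group means. The 5 tested genes most like VEGFA over the 12 arrays by Pearson's r were the cytokine gene IL1B (0.961), the ERK phosphatase gene DUSP6 (0.947), the lipid transfer protein gene PITPNC1 (0.945), the G protein gene GNAI1 (0.932) and the WNT antagonist gene SFRP2 (0.929). After group means were subtracted their correlations with VEGFA were 0.726, 0.801, 0.640, 0.753 and 0.481. Of these, IL1B (2.20; limma adjusted p = 0.000949), PITPNC1 (0.55; 0.0117) and DUSP6 (0.47; 0.0319) rose with FICZ. DUSP6 no longer passed when any DMSO array, FICZ 1 or FICZ 2 was left out (adjusted p up to 0.104, with DMSO 3 removed) or with the 8 arrays alone (0.0651).

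For KDR the 5 most alike were the exoribonuclease gene XRN1 (0.914), CYP1B1 (0.907), TIPARP (0.895), SECTM1 (0.893) and the retinaldehyde dehydrogenase gene ALDH1A3 (0.892). After group means were subtracted these were 0.857, 0.593, 0.617, 0.649 and 0.550. XRN1 itself did not pass with FICZ (0.17; adjusted p = 0.34), whereas CYP1B1, TIPARP, SECTM1 (1.52; adjusted p = 0.000231) and ALDH1A3 (0.84; 0.00116) rose. All of these correlations are descriptions over arrays that share groups.

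Of 13 genes for VEGF coreceptors and surface partners 12 were in the table and 10 were tested, of which 0 rose and 1 fell with FICZ, with a median difference of -0.05 beside -0.03 over all tested genes. The coreceptor genes NRP1 (0.08 ± 0.103; adjusted p = 0.745) and NRP2 (-0.13 ± 0.0779; 0.477), which bind VEGFA and VEGFC beside the kinase receptors, did not pass. The gene that fell was PLXNA2, a semaphorin receptor, at -0.60 ± 0.13 (limma adjusted p = 0.0475). It did not pass in 11 of the 12 fits with 1 array removed (adjusted p up to 0.137, DMSO 1 removed), and the fit in which it passed lacked KynA 2 (0.0208).

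Of 14 genes for secreted proteins that bind VEGF or release it from matrix, 13 were tested, and 1 rose with FICZ, with a median of 0.05. This was THBS1, the thrombospondin that inhibits vessel growth, which was brighter by 1.11 ± 0.236 (limma adjusted p = 0.0459). It passed in 2 of the 12 fits with 1 array removed, those lacking FICZ 2 (0.0328) and KynA 2 (0.0254), and reached an adjusted p of 0.116 with DMSO 4 removed. Among 9 other settings THBS1 passed in 6 (limma adjusted p from 0.000173, with the replicate number as a block, to 0.0699). Among 14 other angiogenic ligands 6 were tested and 1 rose, FGF2, a fibroblast growth factor that acts on endothelium. FGF2 read 9.42, 9.59, 9.54 and 9.61 in DMSO, 9.82, 9.98, 9.95 and 9.96 in FICZ, and 9.72, 9.66, 9.65 and 9.74 in KynA, so that its groups were ordered without overlap as those of VEGFA were. Its rise with FICZ was 0.39 ± 0.0739 (1.31-fold; limma adjusted p = 0.0276). The call was lost without any 1 of the DMSO arrays, FICZ 2 or FICZ 4 (adjusted p 0.0503 to 0.0849) and with the 8 arrays of these groups alone (0.0887). Of 7 PDGF relatives and their receptors 4 were tested and 0 passed by limma (0 at an unadjusted p under 0.05), with PDGFA at -0.15 ± 0.116 and PDGFB at -0.20 ± 0.138.

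The regulators of VEGFA that were listed did not pass. Of 21 transcriptional regulators 17 were tested and 0 passed with FICZ by limma (2 at an unadjusted p under 0.05), with a median of -0.03. HIF1A, the hypoxia-regulated subunit, differed by 0.05 ± 0.0784 (limma adjusted p = 0.787), EPAS1 by -0.01 ± 0.0997 (0.974) and ARNT by 0.14 ± 0.0902 (0.508). The smallest p values in that list were those of TFAP2A (0.39 ± 0.108; adjusted p = 0.117) and VHL, which targets HIF for degradation (0.19 ± 0.0843; 0.309). Of 10 genes for mRNA stability and splicing factors 0 passed (2 at an unadjusted p under 0.05), with a median of -0.11. Of the 10 differences 0 were positive, beside 4470 of the 10807 over all tested genes. ZFP36L2, a decay factor of AU-rich mRNAs, had the lowest value, -0.37 ± 0.0941 (adjusted p = 0.0941), followed by the splicing factor SRSF1 at -0.27 ± 0.0959 (0.223).

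Downstream of KDR, 27 of 35 signalling genes were tested and 0 passed by limma (2 at an unadjusted p under 0.05), with a median of -0.02 and values from -0.15 to 0.26. Those with the smallest p were the PI3 kinase gene PIK3CA (0.25 ± 0.0998; adjusted p = 0.278) and the phospholipase gene PLA2G4A (0.26 ± 0.109; 0.298). Of 13 genes known to be induced by VEGF in endothelium 8 were tested and 0 passed (4 at an unadjusted p under 0.05), with a median of 0.12 and values from -0.12 to 0.42, the highest being the nuclear receptor gene NR4A3 (0.42 ± 0.152; adjusted p = 0.226). STC1 differed by 0.26 ± 0.102 (limma adjusted p = 0.257). Also at an unadjusted p under 0.05 were F3 (0.33 ± 0.13, limma adjusted p = 0.266) and NR4A1 (0.36 ± 0.163, limma adjusted p = 0.323). F3 and NR4A1 had FICZ arrays wholly above DMSO, as had 2.94% of tested genes. With KynA 0 genes of any of these lists passed by limma. An unadjusted p under 0.05 was found for 2 transcriptional regulators, against 3.39% of all tested genes with KynA. It was found for 0 genes of the coreceptor, binding protein, ligand, stability, signalling and VEGF-induced lists.

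**Figure D5:**
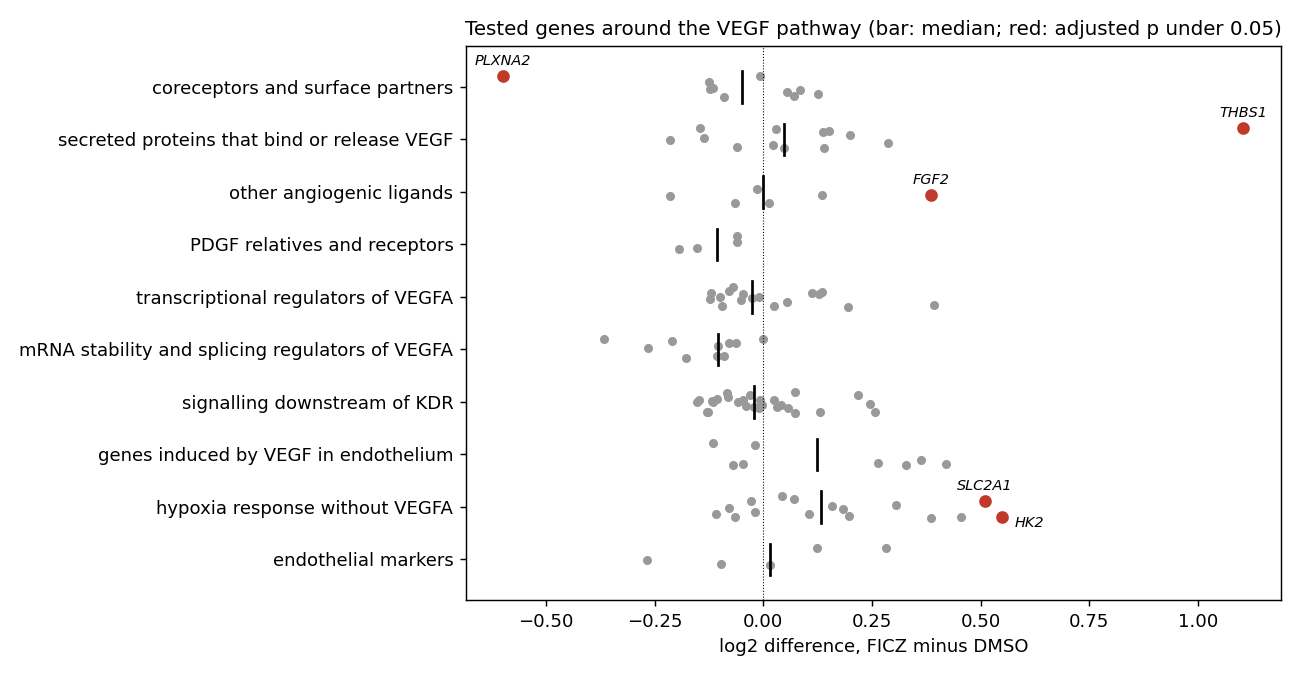
Log2 difference of FICZ minus DMSO for each tested gene of 10 lists around the VEGF pathway, 1 point per gene with the list's median as a bar; red marks an adjusted p under 0.05. The red points are PLXNA2 (-0.60), THBS1 (1.11), FGF2 (0.39), SLC2A1 (0.51) and HK2 (0.55), and the other genes lie between -0.37 and 0.46.

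Hypoxia-responsive genes share inducers with VEGFA. Of 18 such genes apart from VEGFA 16 were tested, 2 rose with FICZ and the median was 0.13. They were hexokinase 2, HK2 (0.55 ± 0.103; limma adjusted p = 0.0242), and the glucose transporter gene SLC2A1 (0.51 ± 0.102; 0.0336). HK2 no longer passed when DMSO 1 was removed, nor with DMSO 2, DMSO 4, FICZ 1 or FICZ 4 removed (adjusted p up to 0.0809, with DMSO 4), nor with the 8 arrays alone (0.0762). SLC2A1 likewise did not pass with DMSO 1, DMSO 3, DMSO 4, FICZ 2, FICZ 3 or FICZ 4 removed (up to 0.115, with DMSO 4). At an unadjusted p under 0.05 there were 5 of the 16, and 11 of the 16 differences were positive, beside 4470 of the 10807 over all tested genes. Besides HK2 and SLC2A1 these 5 were NDRG1 (0.39 ± 0.126, adjusted p = 0.178), the collagen prolyl hydroxylase gene P4HA1 (0.30 ± 0.114, 0.241) and the mTOR inhibitor gene DDIT4 (0.46 ± 0.196, 0.304). FICZ arrays lay wholly above DMSO for HK2, SLC2A1 and NDRG1, as for 2.94% of tested genes. ADM, a hypoxia-induced vasodilator peptide gene that is also listed among the angiogenic ligands, differed by -0.07 ± 0.145 (adjusted p = 0.876).

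KDR is itself a marker of endothelium, so the other endothelial markers were read beside it. Of 14, 7 were not matched to a row of their own, among them the junction genes PECAM1, CDH5 and CLDN5. The summed linear signal of the 7 others ran from 1496 to 1605 in DMSO, 1478 to 1694 in FICZ and 1511 to 1620 in KynA, and these ranges overlap. Of the 5 tested, 0 passed with FICZ by limma (2 at an unadjusted p under 0.05), with ERG at 0.28 ± 0.0777 (limma adjusted p = 0.117) and EGFL7 at -0.27 ± 0.0887 (0.189). Of 5 tested myeloid markers 1 rose, TMEM119 (0.63 ± 0.124; adjusted p = 0.0320), with FICZ 4 highest. TMEM119 did not pass with FICZ 4 removed (0.0761), nor with DMSO 1, DMSO 2, DMSO 3 or FICZ 2 removed (up to 0.105, with DMSO 3), nor with the 8 arrays alone (0.067). At an unadjusted p under 0.05 there were 2 of the 5, the other being the integrin gene ITGAM, which had the largest difference of the list (0.72 ± 0.277; adjusted p = 0.257) and overlapping groups. The summed signal of 6 myeloid markers was 1318 to 1724 in DMSO and 1440 to 2095 in FICZ, and its part in the results for VEGFA and KDR was not tested. Among the FICZ arrays AIF1, CSF1R and TMEM119 were highest in FICZ 4, and TYROBP was lowest there.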

How the data were processed

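Labelled cDNA from 12 samples was measured on 1 Affymetrix whole-transcript array each. The authors deposited log2 signals, and the submitters' processing notes name RMA and the oligo package. The sources used here give no version for them. RMA pulls dim signals together, which understates changes of dim genes. Symbols came from the platform annotation: of 15759 transcript clusters 13577 had 1 symbol, and the brightest cluster of a gene was kept. A gene was tested above its array's 25th percentile (7.69 to 7.74) on 4 or more arrays, so that 10807 genes were tested. The members were matched by platform symbol, and the agent label of the FICZ samples writes nm where their titles write nM.

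limma fitted group means over all 12 arrays (9 residual and 5.19 prior degrees of freedom), two-sided, with Benjamini-Hochberg adjustment over all tested genes; a gene passed under 0.05, and errors are SE with n = 4. The median SE was 0.106, and the number of arrays limits the precision. Changes of VEGFA and partners were compared by exact permutation tests, and lists by counts and medians alone. Members and lists were chosen with earlier results of these data known. Named are the members and list genes that passed in any contrast, otherwise the 2 with the smallest p with FICZ. The 5 genes most correlated with VEGFA and with KDR are named too. Added after values were seen were NRP1, NRP2, HIF1A, EPAS1, ARNT, ADM, NDRG1, P4HA1, DDIT4, ITGAM, NQO1, ALDH3A1, NR4A1 and F3. So were the 4 bright glioma markers, GFAP, SLC1A3, NES and FABP7. These genes were added for their roles or to complete a list. Alternatives were other scalings, filters, variance models and weights, the 8 arrays compared alone, the replicate number as a block and each array left out. Tools were R 4.3.3 with limma 3.58.1, Python 3.11.15, pandas 2.3.3 and matplotlib 3.10.9.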

Additional observations from a re-analysis of the deposited data

Results flagged for a closer look

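Among 38 genes named in the text, 114 groups of 4 arrays were checked for an array far from the others, of which about 1 in 20 would be marked by chance, and 10 were. Of the members, VEGFC was set apart in FICZ 2 (9.324, the highest of its group) and in KynA 1 (9.144, the lowest), and KDR in FICZ 3 (8.868, the highest, next 8.606). SLC2A1 was highest in DMSO 2 (9.671) and in KynA 2 (9.961). ERG was lowest in FICZ 3 (7.683) and EGFL7 highest in FICZ 1 (8.33). TMEM119 was highest in FICZ 4 (8.739), AQP4 lowest in DMSO 1 (7.298) and AHRR lowest in KynA 2 (8.356).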

How the results depend on the processing

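With FICZ against DMSO the count of members that passed was 2 under 8 of 9 other settings and 1 with only the 8 arrays compared (KDR 0.48, adjusted p = 0.0531). With 1 array left out the count ran from 1 to 2, and the KDR difference from 0.41 to 0.52 (adjusted p 0.0277 to 0.0868). VEGFA passed in all 9 other settings (0.52 to 0.57) and all 12 fits with an array left out (0.47 to 0.57). With KynA against DMSO and FICZ against KynA the count was 0 in each of these fits. The number of partners whose change differed from that of VEGFA at an unadjusted exact p under 0.05 was 2 with FICZ, 1 with KynA and 0 between the ligands, also under cyclic loess and with averaged clusters. With an array left out it ran from 1 to 3, 0 to 2 and 0 to 1.

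Over all transcript clusters equal replicate numbers showed little shared deviation: deviations of same-numbered arrays from their group means correlated at -0.12 to 0.156. IL1B and THBS1, picked after values were seen, had their extreme array at the same number in each group. The share of all genes with such a pattern was not counted. IL1B was highest at number 2 in DMSO, FICZ and KynA (8.242, 10.44 and 9.086), and THBS1 was lowest there (7.87, 9.068 and 8.343). Whether same-numbered samples were handled together is not stated. With the number as a replicate block, VEGFA (limma adjusted p = 0.00732) and KDR (0.0234) still passed with FICZ and no member passed otherwise. Over all genes the block moved the count of calls from 92 to 124 with FICZ, from 1 to 6 with KynA and from 1 to 6 between the ligands. Calls with FICZ that were lost in some other fits held with the block. They were THBS1 (0.000173), PLXNA2 (0.0211), FGF2 (0.0338), HK2 (0.0273), SLC2A1 (0.0189), TMEM119 (0.0433) and DUSP6 (0.00974). Of the genes named here, GNAI1 (0.0495) and SFRP2 (0.0494) then passed with FICZ, CYP1B1 (0.0134), IL1B (0.00737) and TIPARP (0.0333) with KynA, and IL1B (0.000365), SECTM1 (0.0487) and TIPARP (0.0487) between the ligands. The exact sign-flip permutation test of 4 paired differences cannot go below p = 0.125. The count of 92 with FICZ was 62 without a filter, 140 with a trended, robust variance and 43 with only the 8 arrays, and 42 to 103 with an array left out. PGF and FLT4 entered only the fit without a filter, where neither passed.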
